A study of Homo sapiens with 35 samples.

Results

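The outermost 5 Mb of each autosome were compared with the remaining bins of the same chromosome in a map of nuclear lamina contacts from single human cells. The map gives 100-kb bins of the genome build hg19, and all positions are hg19, counted from 1. An end was every bin with a value in all cells that lay within 5 Mb of the first or the last position of its chromosome as named in the table. The acrocentric chromosomes (13, 14, 15, 21 and the one named 22:9) contributed their last end only. The rule gave 37 ends on 21 chromosomes, 16 of them with both ends, and 1839 end bins of the 26584 bins used in the series. Each end had 47 to 51 bins. The reference was the 23258 other bins of the same chromosomes. Another 22 bins inside the ends had no value, and chromosome 8 was not analysed here.

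All cells belonged to 1 group: KBM7, a human myeloid leukaemia cell line, clone 5-5, given as diploid, carrying Dam fused to LaminB1. Methylation was switched on with 0.5 nM Shield1, a small molecule that stabilises a protein carrying its matching domain, for 15 h before the harvest. Cells were then sorted singly from the 2% smallest cells that were positive for both Fucci cell-cycle markers. The labels list 35 samples, of which 32 cells had values here and 3 (samples 12, 14 and 16) were not analysed here. The group is 1 clone with no control cells, so each p-value below measures only the spread between cells of this clone.

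The nuclear lamina is a mesh of lamin filaments under the inner nuclear membrane, and the chromatin that touches it is mostly gene-poor and transcriptionally quiet. In DamID, a lamin fused to the Dam methylase leaves an adenine methyl mark on the DNA near it, so that the marked fragments record where contact took place. Human chromosome ends carry telomeres of short repeats, and beside them lie subtelomeres that are gene-rich and GC-rich on many chromosomes. The long-arm end of chromosome 4, which holds the D4Z4 repeat and the DUX4 gene linked to facioscapulohumeral muscular dystrophy, is known for lying at the nuclear periphery in human cells.

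The table gives, for each bin and cell, the observed over the expected reads (OE). A bin with an OE of 1 or more counted as in contact in that cell. The contact share of an end is the percentage of its bins in contact in a cell, and the contact frequency of a bin is the percentage of the 32 cells in which it was in contact. Over the autosomes the contact share was 25.7% ± 7.94 (SD, n = 32). The median cell had 120164 recovered reads, the lowest 985 and the highest 258225. Cells 13, 15 and 17 had 985, 1221 and 1755 reads, where a single read already gave an OE of at least 13.7 in the median bin, and the other 29 cells had at least 40279 reads. The headline values are therefore also given for the 29 deeper cells. In a diploid cell the 2 copies of a chromosome and the times within the 15 h are not told apart.

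Chromosome ends touched the lamina far less than the rest of their own chromosomes. With every chromosome counted equally, the contact share was 6.94% ± 2.51 in the ends and 23.5% ± 7.36 in the other bins (SD, n = 32). Ends minus other bins was -16.6 percentage points ± 5.28 (SD, n = 32), from a lowest value of -22.5 over a median of -17.8 to a highest of -2.04. All 32 cells had a value below 0, and the two-sided sign-flip permutation test over cells gave p = 1e-05, the lowest possible with 100000 resamples. In the 29 deeper cells the shares were 7.53% in the ends and 25.5% in the other bins, and the difference was -18.0 points.

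This comparison within chromosomes leaves out the part that comes from which chromosomes the bins lie on. Pooled over chromosomes, the share was 7.32% in the end bins and 27.1% in the other bins, a difference of -19.8 points. With end bins weighted equally within chromosomes, -16.6 points of it lay inside the chromosomes, and 16.2% of the pooled difference lay between the chromosomes. Taken by chromosome, the ends of 19 of 21 chromosomes had a lower share than the other bins and those of 0 had a higher one, at an adjusted p under 0.05 and also at an unadjusted one. The exceptions were chromosome 3, whose 2 ends together differed by -0.165 points (adjusted p = 0.907), and chromosome 15, which differed by -1.32 points (adjusted p = 0.364; sign-flip permutation tests, Benjamini-Hochberg over 21 chromosomes). Other windows were not grouped by chromosome in this way, so these counts have no background. Among those called lower, chromosome 19 differed by only -2.35 points and the one named 22:9 by -0.600, lower in 14 cells.

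**Figure D1:**
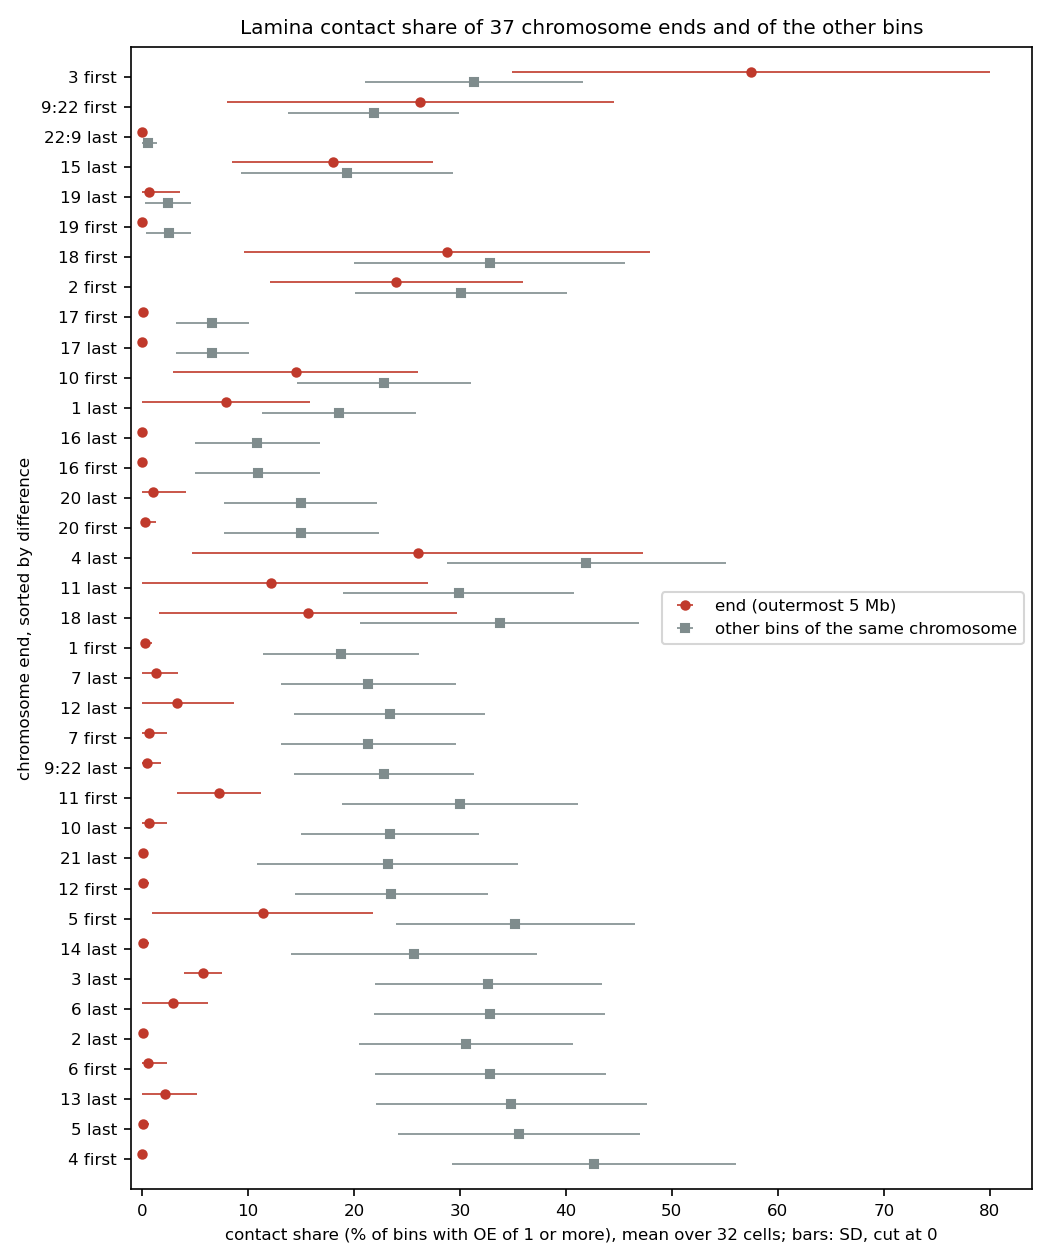
Contact share of the 37 ends (red circles) and of the other bins of the same chromosome (grey squares), in percent of bins, as mean and SD over 32 cells, with the error bars cut at 0; ends run down the page by their difference from the other bins. Most red circles sit near 0 to the left of their grey square, and the first ends of chromosome 3 and of the chromosome named 9:22 sit to the right of theirs.

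Single ends were tested together with all other 5-Mb windows that tile the autosomes, 524 in all, each against the other bins of its chromosome (sign-flip permutation test, Benjamini-Hochberg over 524 windows, threshold 0.05). Of the 37 ends, 33 were called lower, 1 higher and 3 were not called. Over all 524 windows, 50.6% were called lower and 36.3% higher. Among the 487 windows that are no ends, 47.6% were called lower and 38.8% higher. A call of lower was thus common among windows of any place, and more common among the ends. In 23 of the 37 ends the share was lower in all 32 cells, and 10 ends were the lowest window of their chromosome or tied for it. Neither count was made for the other windows, so no background stands beside them. Ends at 0 on chromosomes 16, 17, 19 and 22:9 are among the 10, and these chromosomes have few contacts. Beside the first end of chromosome 19, the next 5 Mb inward also had a share of 0. The median difference over the ends was -18.1 points.

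The ends were also low in level and unequal among themselves. Their median contact share was 0.688%, against 23.4% over the other windows. A share under 1% was found in 19 of the 37 ends (51.4%) and in 69 of the 487 other windows (14.2%). At the low side, 6 ends had no contact in any cell. At the high side, 10 ends reached a share of 10% or more, and the 5 ends with the most contacts held 60.2% of the 4306 contacts counted in ends.

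The first end of chromosome 4 (1 to 5000000) had the largest deficit. Its contact share was 0 in every one of the 32 cells, whereas the other bins of chromosome 4 had 5.62% in the lowest cell, a median of 45.7% and 58.7% in the highest. The 2 sets of values do not overlap. The difference was -42.6 points ± 13.4 (SD, n = 32; adjusted p = 1.47e-05, the smallest reached among the 524 windows, by sign-flip permutation). The count of 0 allows a share of up to 0.188%, a limit for counting error only. This limit takes all bins and cells as independent, which neighbouring bins are not, so it is likely too low. Only 113 reads fell in this end over all cells, and its mean OE was 0.0139, against 1.49 in the other bins.

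Next came the last end of chromosome 5 (175900001 to 180800000). Its share was 0.128% ± 0.502, with 2.04% in the highest cell and a median of 0, against 35.5% ± 11.4 in the other bins (SD, n = 32). The difference was -35.4 points, below 0 in 32 of 32 cells (sign-flip permutation, adjusted p = 1.47e-05). In 47 of its 49 bins no cell was in contact.

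At the last end of chromosome 13 (110200001 to 115169878) the share was 2.19% ± 2.98, with a median of 0 and a highest value of 8%, and the other bins had 34.9% ± 12.8 (SD, n = 32). The difference was -32.7 points. Contacts at this end lay in its inner part, with shares of 0 in the outermost Mb, 10.3% in the innermost and 41.3% just beyond the 5-Mb limit. Chromosome 6 had at its first end (100001 to 5000000) a share of 0.574% ± 1.81, with a median of 0 and a highest value of 8.16%, against 32.9% ± 10.9 in the other bins (SD, n = 32), and the difference was -32.3 points. Chromosome 2 had at its last end (238200001 to 243100000) a share of 0.0638% ± 0.361, against 30.6% ± 10.1 in the other bins (SD, n = 32), and the difference was -30.5 points. In these 3 ends the share was below that of the other bins in 32 of 32 cells (sign-flip permutation, adjusted p = 1.47e-05 each), and the last end of chromosome 2 was the lowest window of its chromosome.

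The first end of chromosome 3 (1 to 5000000) was the only end called higher than its chromosome. Its contact share ranged over 2% in the lowest cell, a median of 64% and 84% in the highest, against 4.52%, 34.2% and 43.7% in the other bins. The ranges overlap, and the end was higher in 29 of 32 cells and lower in 3. The means were 57.4% ± 22.6 in the end and 31.3% ± 10.3 in the other bins (SD, n = 32), a difference of 26.1 points (sign-flip permutation, adjusted p = 1.47e-05). In the 29 deeper cells the end had 62.5% ± 16.7 and never fell below 24%. Over these cells its share was higher in cells with more reads (Pearson's r of 0.523 with log10 reads). Without the distal long arm of chromosome 3, an alternative added after the data were seen, the difference was 30.4 points. It was 39.02 points with ends of 2 Mb, 16.4 with an OE limit of 2 and 12.8 with ends of 10 Mb, and the end was called higher under each.

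This end was high but not extreme for a window of the genome: 58 windows that are no ends had a higher share, and on chromosome 3 it ranked 34 of 40 from the lowest. Contacts ran from the tip inward. The share was 62.8% in the outermost Mb, 78.4% in the next, then 69.7%, 55.0% and 21.3%. A stretch of 2.9 Mb of adjacent bins at 50% or more (100001 to 3000000) was in contact in 71.4% of the cells on average, with an OE of 2.47 ± 1.51 (SD, n = 32). In GRCh38.p14, the RefSeq table used for names, the first protein genes from this end with a full symbol are CHL1, CNTN6 and CNTN4. These genes encode neuronal cell adhesion molecules of the immunoglobulin superfamily. The next in order are IL5RA, TRNT1 and CRBN. That table is of another build than the bins, so no gene was placed on a bin here.

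Opposite on the same chromosome, the last end (193000001 to 197900000) behaved like most ends. Its share was 5.74% ± 1.83, against 32.7% ± 10.7 in the other bins (SD, n = 32), lower in 32 of 32 cells. With ends of 10 Mb the difference turned to 9.28 points. Its contacts came almost only from the 3 innermost bins (193000001 to 193300000), with a mean contact frequency of 88.5%, and 41 of its 49 bins had no contact in any cell. The median OE of its contacts was 4.49, against 2.91 for the contacts of the other bins.

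From the tip of the long arm of chromosome 4 inward, the RefSeq order of GRCh38.p14 lists DUX4, FRG2, FRG1, TRIML1, TRIML2, ZFP42 and FAT1. The long-arm end (186200001 to 191100000) was called lower than its chromosome but had many contacts. Its share was 2.04% in the lowest cell, 20.4% in the median and 71.4% in the highest, against 5.51%, 44.4% and 57.1% in the other bins. The 2 ranges overlap, and the end was lower in 25 cells and higher in 7. The means were 26.0% ± 21.3 in the end and 41.9% ± 13.2 in the other bins (SD, n = 32), a difference of -15.9 points (sign-flip permutation, adjusted p = 0.000294). With any read counted as a contact the difference was -2.40 points (adjusted p = 0.362). It ranked 10 of 39 windows of chromosome 4 from the lowest.

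Cells differed widely at this end. Over the 29 deeper cells the SD was 21.1 points, and in 6 of these cells more than 50% of the end was in contact. Among 77 windows that are no ends and had a share between 20 and 35%, the SD ranged from 4.79 to 23.7 with a median of 14.3, and 4 windows exceeded this end. Contacts were spread over it, with 16.3% in the outermost Mb, 37.5% and 44.4% in the next ones, then 16.9% and 14.1%, and its most contacted bin was so in 18 of the 32 cells. Only 5 of its 49 bins lacked any contact.

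The 3 ends without a call were not separated from their chromosome. The first end of the chromosome named 9:22 (1 to 5000000), which joins parts of chromosomes 9 and 22 in the Philadelphia translocation that KBM7 carries, had a share of 0 in the lowest cell, 26% in the median and 72% in the highest, against 2.23%, 24.1% and 32.8% in the other bins. Its mean was 26.3% ± 18.3 in the end and 21.8% ± 8.08 in the other bins (SD, n = 32), a difference of 4.40 points (sign-flip permutation, adjusted p = 0.117; higher in 20 cells, lower in 12). It was called higher with an OE limit of 0.5 (10.9 points), with any read counted (17.8 points), with cells thinned to equal reads (5.53 points) and with ends of 10 Mb (13.2 points). With an OE limit of 2 the difference turned to -2.33 points (adjusted p = 0.168).

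Chromosome 15 had at its last end (97500001 to 102500000) a share of 18.0% ± 9.49 and the other bins had 19.3% ± 10.00 (SD, n = 32; difference of -1.32 points, sign-flip permutation adjusted p = 0.366). Its contacts lay at the inner border: the share was 1.25% in the outermost Mb and 71.3% in the fifth. With ends of 2 Mb the difference was -18.3 points (adjusted p = 1.43e-05), and with ends of 10 Mb it turned to 12.1 points. The reference for chromosome 15 lacks the bins at 61000001 to 89900000, which had no values. Chromosome 18 had at its first end (1 to 5000000) a share of 28.7% ± 19.2, with 0 in the lowest cell, 23% in the median and 66% in the highest, against 32.8% ± 12.8 in the other bins (SD, n = 32), and the difference was -4.05 points (adjusted p = 0.140; lower in 20 cells). It was called lower with an OE limit of 2 (-5.32 points) and with ends of 10 Mb (-8.87 points).

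On chromosomes with few contacts the differences were small. The last end of the chromosome named 22:9 (26200001 to 31100000) had a share of 0 in all 32 cells, against 0.600% ± 0.806 in the other bins (SD, n = 32), a difference of -0.600 points (sign-flip permutation, adjusted p = 0.000124). Values were lower in 14 cells and equal in 18. The call was lost without the tenth of bins with the fewest expected reads, taken among the bins with a read (-0.0868 points, adjusted p = 0.519). Chromosome 19 had at its last end (54100001 to 59100000) a share of 0.688% ± 2.90, with 16% in the highest cell and a median of 0, against 2.44% ± 2.19 in the other bins (SD, n = 32). The difference of -1.75 points (adjusted p = 0.0138, lower in 29 cells) was lost with an OE limit of 0.5 (-1.74 points, adjusted p = 0.105), without the 8 cells of lowest depth (-1.57 points, adjusted p = 0.0862) and after thinning (-1.43 points, adjusted p = 0.0863). The 6 ends at 0 were the first ends of chromosomes 4, 16 and 19 and the last ends of chromosomes 16, 17 and 22:9, and only that of chromosome 4 lies on a chromosome with many contacts.

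The remaining 26 ends include the first end of chromosome 18 and 25 called lower, with shares of 0 to 24.0% and differences of -29.9 to -2.50 points. Of these 25, the share was lower in all 32 cells in 18, and in at least 26 cells in each. The last end of chromosome 1, named here after its values were seen, had most of its contacts at the tip, with 24.7% in the outermost Mb, 11.9% in the next and at most 2.5% in the 3 others. Over 5 Mb it had 7.94% ± 7.91, against 18.6% ± 7.28 in the other bins (SD, n = 32; -10.7 points, adjusted p = 1.47e-05 by sign-flip permutation), and with ends of 2 Mb the difference was -0.0786 points (adjusted p = 0.979). Without the tenth of bins with the fewest expected reads, the share of this end was 3.69% and the difference -16.2 points.

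**Figure D2:**
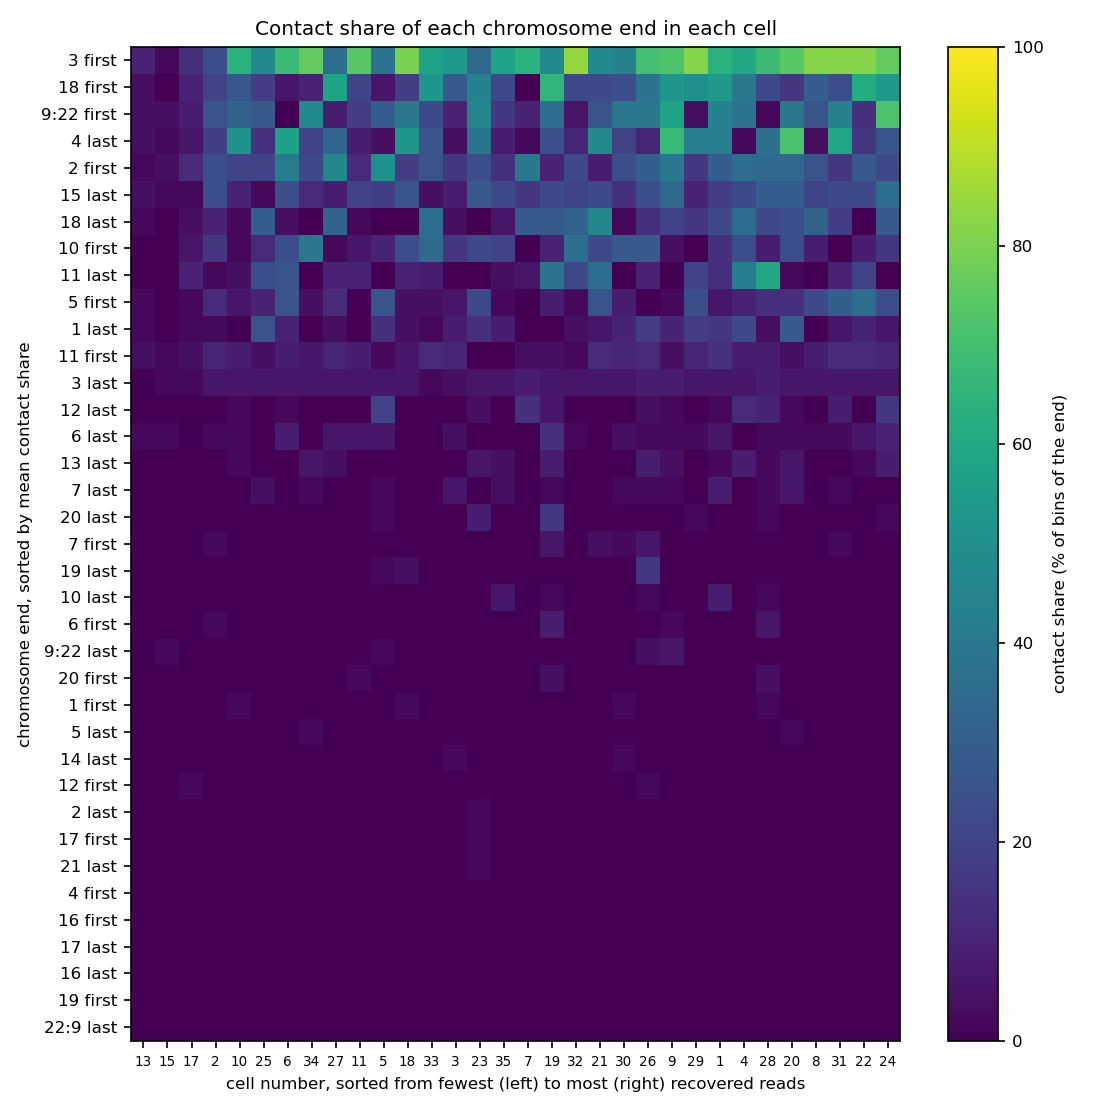
Contact share in percent of bins (colour) of each of the 37 ends (rows, highest mean at the top) in each of the 32 cells (columns, from fewest to most recovered reads). The top row, the first end of chromosome 3, is bright in nearly all deeper cells, the next rows change from cell to cell, and the lower rows are dark in every cell.

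The plot of each end in each cell shows 3 kinds of pattern. The first end of chromosome 3 exceeded 50% in 21 of the 29 deeper cells. The first ends of chromosomes 18 and 9:22 and the last ends of chromosomes 4 and 11 exceeded 50% in 7, 2, 6 and 1 of them, and the last end of chromosome 11 had no contact in 8. Among the 13 ends at 5% or more, the last end of chromosome 3 varied least, at 2.04 to 8.16% in the deeper cells, with an SD of 1.15 points. Ends near 0 varied still less, such as the last end of chromosome 2 with an SD of 0.379 points. Over the 29 deeper cells, the share of the 13 ends at 5% or more correlated with the share of the rest of their chromosome, both taken minus the share over the other chromosomes of the same cell, with a Pearson's r from -0.22 at the first end of chromosome 2 to 0.56 at the last end of chromosome 11. These correlations are a description, and the 2 values of a cell share its depth and the subtracted share. For the plain share and log10 reads, r ran from -0.0895 (first end of chromosome 10) to 0.523 (first end of chromosome 3).

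The low share of ends also held bin by bin. No cell was in contact in 1368 end bins (74.4%) and in 9430 other bins (40.5%), and the share over all autosomal bins was 43.0%. A contact frequency of 50% or more was reached by 119 end bins (6.47%) and by 30.1% of the other bins, and one of 80% or more by 20 end bins (1.09%) and 8.53% of the other bins. An exact Poisson-binomial test set each bin against the contact shares of the cells on its own chromosome (Benjamini-Hochberg over 25097 bins). It called 1178 end bins (64.1%) in contact less often and 122 (6.63%) more often, where 46.9% of all autosomal bins were called less often and 30.5% more often. On 4 chromosomes (16, 17, 19 and 22:9), with 347 end bins, contacts are so few that a bin with none cannot pass. Among the bins that could, 79.0% of 1492 end bins and 51.5% of 22825 autosomal bins were called less often. Neighbouring bins are not independent.

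End bins held fewer reads in general. They made up 7.33% of the autosomal bins and 2.26% of the reads (88216 reads). No read in any cell was found in 271 end bins (14.7%) and in 915 other bins (3.93%), with 4.73% over all autosomal bins. Among the bins with a read in at least 1 cell, the median OE that a single read gave was 1.01 times as high in ends as in other bins. Bins without any read have no such value and were left out of this ratio. Without the bins at 0 in every cell the share was 7.49% in the ends and 24.3% in the other bins, and the difference was -16.9 points. Without the tenth of bins with the fewest expected reads it was -17.1 points. Cells with Dam alone were not used here, and the part of accessibility and mappability in these values was not tested.

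The contact share was lowest at the tip and higher farther inward. Averaged over the ends, it was 3.24% ± 1.36 in the outermost Mb, then 7.30%, 7.72% and 5.37%, and 12.8% ± 4.51 in the last Mb inside the 5-Mb limit (SD over 32 cells). Just outside the limit it was 15.4% ± 5.56, and it stood between 18.8 and 27.2% from 6 to 20 Mb. In the outermost Mb 30 of the 37 ends had a share under 1%, and between 4 and 5 Mb it was 18. The ends differed in this, and the median over ends was 0 in the first 2 steps and 1.25% between 4 and 5 Mb.

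**Figure D3:**
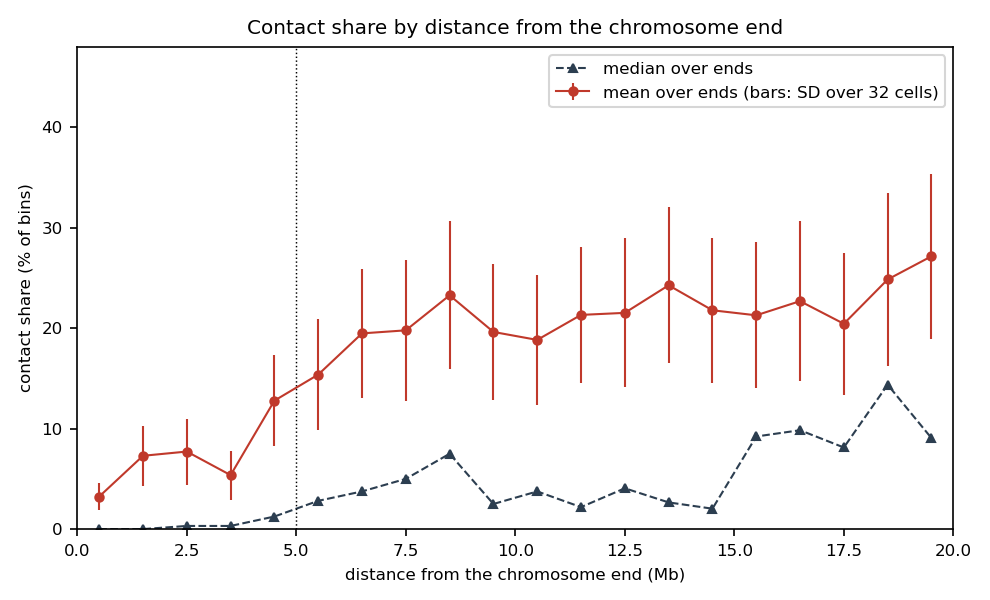
Contact share in percent of bins against distance from the chromosome end in 1-Mb steps, as the mean over ends (red circles, bars give the SD over 32 cells) and the median over ends (dark triangles, dashed); the dotted line marks the 5-Mb limit. The mean is 3.24% in the outermost Mb and 27.2% at 19 to 20 Mb, and the median stays below the mean at every step.

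The outermost 5 Mb were also lower than their direct neighbours. Their mean share over ends was 7.29% ± 2.61, against 19.5% ± 6.39 in the next 5 Mb inward (SD, n = 32). The difference was -12.2 points ± 4.16 and below 0 in every one of the 32 cells, with p = 1e-05 by sign-flip permutation, again the smallest possible. By mean share, 31 ends lay below their inner neighbour, 5 above it and 1 level with it at 0. This step was not computed for windows that are no ends, so the counts have no background. Some of the 31 were small steps near 0, such as 0 against 0.0625% at the last end of chromosome 17. The step was widest at the last end of chromosome 3, with 5.74% ± 1.83 in the end and 75.2% ± 19.2 in its neighbour (SD, n = 32). The OE of that neighbour was high, with a mean of 4.28 at 5 to 6 Mb and 6.52 at 6 to 7 Mb. High values were not limited to these steps, with 5.00 at 8 to 9 Mb and 5.14 at 16 to 17 Mb. In between it was 0.0481 at 12 to 13 Mb. At 5 to 6 Mb from the first end of chromosome 2, a like share (76.9%, against 77.2% here) came with an OE of 2.42. All bins of chromosome 3 outside its last end had a mean OE of 1.31. The reason for the high OE was not tested. Nor was it tested whether the OE limit of 1 is passed more easily along this arm. The width of this step may therefore not compare with that of other ends. The last end of chromosome 6 had 2.94% ± 3.33 against 50.7% ± 22.2 (SD, n = 32), and the first end of chromosome 20 had 0.313% ± 1.03 against 43.8% ± 21.6 (SD, n = 32). The ends above their neighbour were led by the first end of chromosome 3, with 57.4% against 30.9% and higher in 32 of 32 cells, and the first end of chromosome 18, with 28.7% against 20.9% and higher in 22. The other 3 had shares under 1% on both sides.

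The distance from the tip to the first bin with contact in 20% or more of the cells spread widely. It was under 5 Mb at 17 ends, 5 to 10 Mb at 7, 10 to 20 Mb at 8 and more than 20 Mb at 4, and no bin of the chromosome named 22:9 reached that frequency. It was longest at the first end of chromosome 1, where the first such bin lay 48.7 Mb from the tip. At the first end of chromosome 4 it lay 10.6 Mb away, although that chromosome is rich in contacts.

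**Figure D4:**
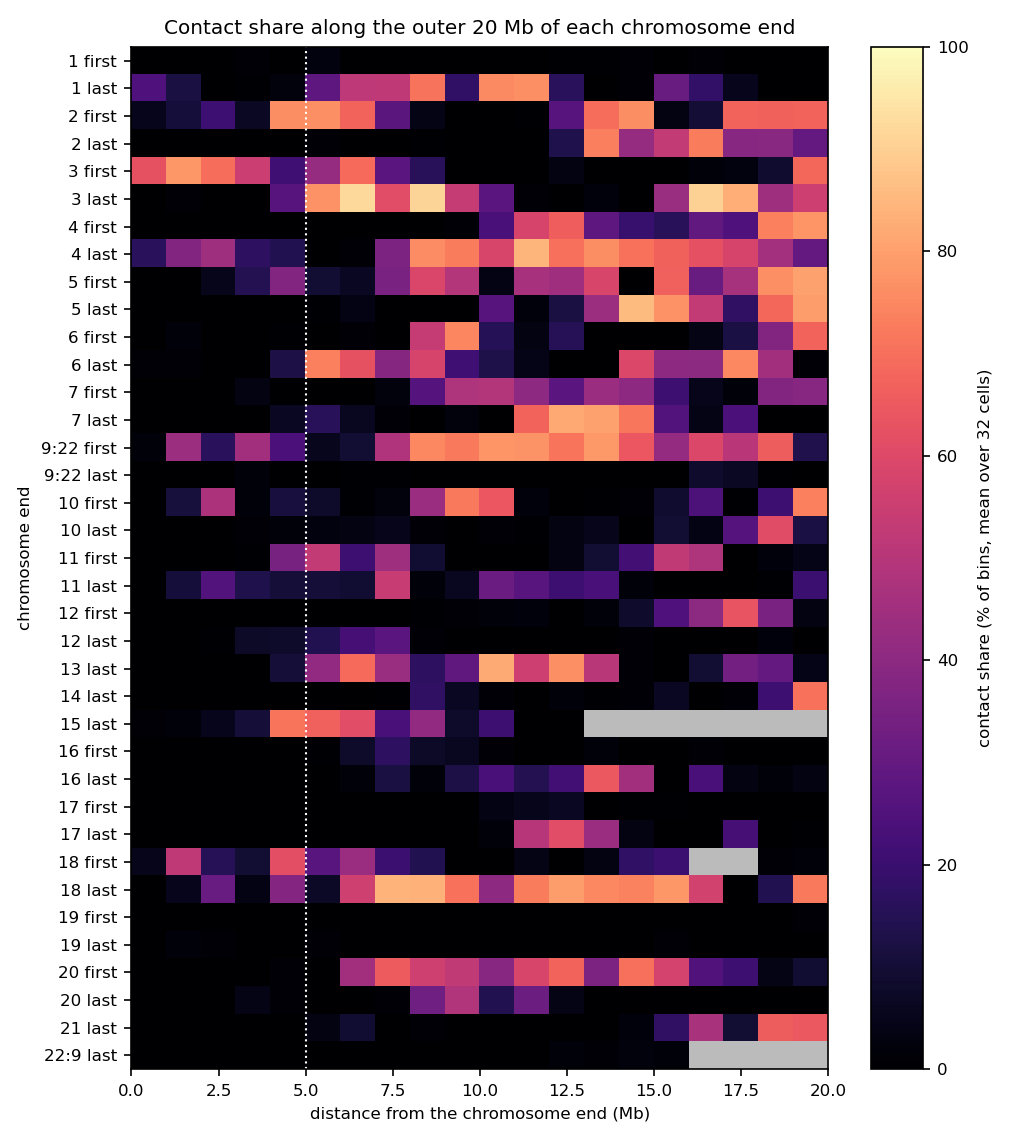
Contact share in percent of bins (colour, mean over 32 cells) along the outer 20 Mb of each of the 37 ends (rows) in 1-Mb steps from the tip at the left; grey marks steps without values and the dotted line the 5-Mb limit. The first end of chromosome 3 is bright from its tip on, and most other rows are dark left of the line.

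Part of the contacts within ends lay in longer stretches. A bin at a contact frequency of 50% or more was found in 12 of the 37 ends, and a run of such bins at least 0.3 Mb long in 8 of them. The longest run of each of these 8 ends is given here, and together these runs held 1735 of the 4306 contacts (40.3%). After the 2.9-Mb run of chromosome 3 came one of 1.1 Mb at the first end of chromosome 2 (3900001 to 5000000, mean frequency 73.9%). Stretches of 0.9 Mb lay at the first end of chromosome 10 (1900001 to 2800000, 54.2%), the last end of chromosome 15 (97500001 to 98400000, 75.3%) and the first end of chromosome 18 (4100001 to 5000000, 64.2%). A stretch of 0.5 Mb lay at the first end of 9:22 (3700001 to 4200000, 58.1%), and 2 of 0.3 Mb lay at the last end of chromosome 3 and the first end of chromosome 11 (4700001 to 5000000, 79.2%). Those of chromosomes 2, 15, 18 and 11 and of the last end of chromosome 3 touch the 5-Mb limit, where the count stops. The stretches of chromosomes 3 (first end), 10 and 9:22 lie wholly within the end.

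The 2 ends of a chromosome were also compared in the same cells. Of the 16 chromosomes with both ends, the first end had the higher share on 6 (2, 3, 5, 9:22, 10 and 18) and the lower share on 4 (1, 4, 6 and 12), and 6 were not called (sign-flip permutation tests, Benjamini-Hochberg over 16). Pairs of other windows were not compared, so these counts have no background. In the different comparison of each window with the other bins of its chromosome, 50.6% of all 524 windows were called lower and 36.3% higher. The widest gap was that of chromosome 3, with 57.4% ± 22.6 in the first end and 5.74% ± 1.83 in the last (difference of 51.7 points, adjusted p = 2.29e-05). It was followed by chromosome 4 with 0% and 26.0% ± 21.3 (-26.0 points), 9:22 with 26.3% ± 18.3 and 0.446% ± 1.35 (25.8 points), and chromosome 2 with 24.0% ± 12.0 and 0.0638% ± 0.361 (23.9 points; SD, n = 32 for each). On chromosome 2 the first end was lower than the other bins (-6.08 points, adjusted p = 0.0127), a call lost with an OE limit of 0.5 (-3.85 points), with ends of 10 Mb (-0.369 points) and for the mean OE (-0.181, adjusted p = 0.0529), and with any read counted the difference turned to 5.16 points.

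**Figure D5:**
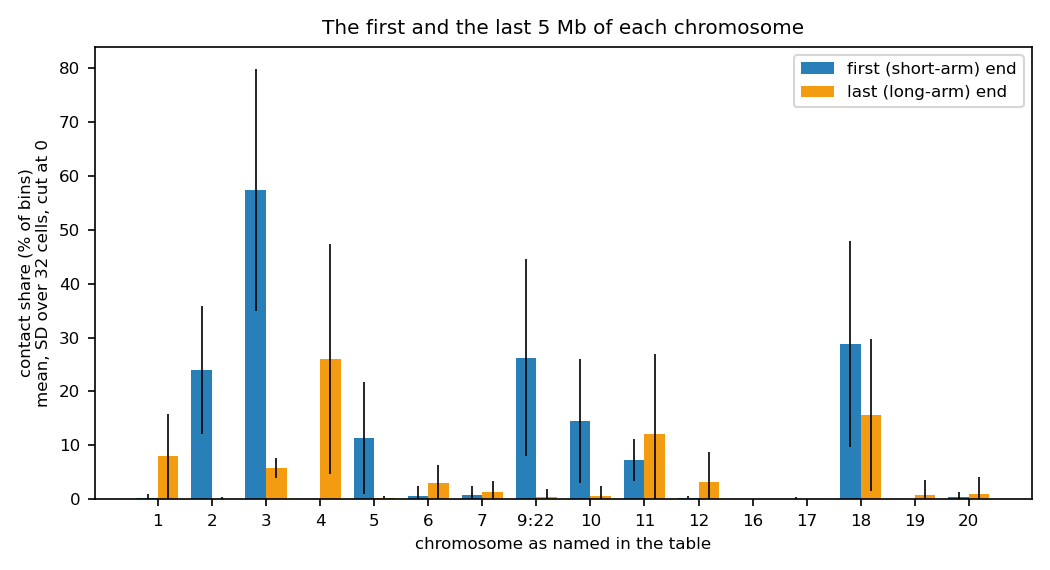
Contact share in percent of bins of the first end (blue) and the last end (orange) of the 16 chromosomes with both, as mean over 32 cells with the SD cut at 0. On chromosome 3 the first end stands at 57.4% and the last at 5.74%, and on chromosome 4 the first end is at 0 and the last at 26.0%.

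On chromosomes 7, 16, 17, 19 and 20 both ends had shares of 0 to 1.35%, and their difference was not called. It was called, with a lower first end, on chromosome 7 with any read counted (-5.66 points, adjusted p = 0.0107), and on chromosome 19 with an OE limit of 0.5 (-2.50 points), with any read counted (-7.95 points) and after thinning (-1.51 points). With ends of 10 Mb the first end was called higher on chromosomes 7 (4.81 points) and 20 (13.2 points). On chromosome 11 the ends had 7.27% ± 3.98 (first) and 12.1% ± 14.9 (last; SD, n = 32), with a difference of -4.85 points that was not called (sign-flip permutation, adjusted p = 0.101). It was called with any read counted (-26.3 points, adjusted p = 1.78e-05), with an OE limit of 0.5 (-11.4 points), after thinning (-6.27 points) and with ends of 2 Mb (-5.47 points). On chromosome 18 both ends had many contacts, 28.7% ± 19.2 in the first and 15.6% ± 14.1 in the last (SD, n = 32), and the difference was 13.1 points (adjusted p = 0.000976). With ends of 10 Mb it turned to -13.1 points, and the gap of chromosome 3 was 3.37 points and not called (adjusted p = 0.215). With ends of 2 Mb the calls of chromosomes 5, 6 and 12 were lost, at differences of 0, -0.107 and 0 points. The call of chromosome 6 was also lost with any read counted (-2.99 points, adjusted p = 0.109), and that of chromosome 12 with an OE limit of 2 (-0.500 points, adjusted p = 0.227).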

How the data were processed

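The values were deposited by the authors as a ratio, and per the file headers each is the observed over expected reads (OE) of a 100-kb bin in 1 cell. The genome build was hg19 and the tools were cutadapt and Bowtie2 2.1.0, per the submitters' processing notes. The making of the expectation and any removal of duplicates is not given in the sources used here. The table holds 30376 bins, of which 26584 with a value in every cell were used (25097 on autosomes). Columns were matched to samples by the number in the title.

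Whole reads were recovered from the steps in which the values of a bin fall, within a tolerance of 0.01 reads, and were used for depth, for thinning to 40279 reads and for expected reads. Bins without a read in any cell have no value for expected reads, so they stayed in when the tenth with the fewest was left out. A bin was in contact at an OE of 1 or more. Differences were computed within cells and tested over 32 cells with two-sided sign-flip permutation tests (100000 resamples), adjusted by Benjamini-Hochberg at a threshold of 0.05 over 524 windows of 5 Mb with at least 10 bins, 21 chromosomes or 16 pairs of ends. Single bins were tested with an exact Poisson-binomial test. The scripts (Python 3.11.15, numpy 2.4.6, scipy 1.17.1, pandas 2.3.3) were tested on simulated data. Reads after PCR are not independent molecules. Limits from a count of 0 cover counting error only and take bins and cells as independent.

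Ends given in full are the first and last end of chromosome 4 and the 5 with the lowest and the 5 with the highest difference from their chromosome, together with any called higher. The ends, this rule and the tests were chosen with earlier results of these data known. The alternatives were other OE limits, fewer cells, thinning, fewer bins, other end widths, other reference bins and the mean OE. The 22 end bins without values were left out. No hg19 annotation was used, so no gene has a value here.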

Additional observations from a re-analysis of the deposited data

Results flagged for a closer look

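The X chromosome lies outside the comparison of autosomes, and contacts were also found at its ends. The contact share of the first end of X was 22.8% ± 15.0 over 23 bins, against 37.3% ± 11.9 in the other bins of X (SD, n = 32), and it was lower in 28 of 32 cells. The contact share of the last end of X was 13.4% ± 11.2 over 47 bins, against 37.9% ± 12.1 in the other bins (SD, n = 32), and it was lower in 32 cells. Both ends are given because no autosomal comparison used them, and neither difference was tested.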

How the results depend on the processing

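Over all alternatives the difference between ends and other bins of the same chromosome stayed below 0, at -20.9 to -10.8 points for contact shares and -0.589 for the mean OE (0.241 in ends, 0.831 in other bins), with p = 1e-05 in each, the smallest the resamples can give. Leaving out each chromosome in turn gave -17.4 (without chromosome 3) to -15.8 points (without chromosome 13). The number of ends called lower was 28 to 34. The number called higher, 1 as reported, was 2 with an OE limit of 0.5, 2 with any read counted, 2 after thinning and 7 with ends of 10 Mb. End bins called in contact more often numbered 200 in place of 122 with any read counted, where 37.6% of all bins were so called. Of 621 recomputed values of single ends and pairs, 566 kept their side of the threshold and did not change sign (9 of them had 1 of the 2 values at 0), 18 newly passed, 18 no longer passed and 19 reversed. In 8 of the 19, neither value was called: with an OE limit of 2, -2.33 points at the first end of 9:22, 0.548 at the last end of chromosome 15 and 0.469 for first minus last of chromosome 11; with any read counted, 1.83 at the last end of chromosome 15 and 1.37 for the pair of chromosome 20; 0.571 at the last end of chromosome 15 after thinning, 0.156 for the pair of chromosome 20 with ends of 2 Mb and 2.26 for that of chromosome 11 with ends of 10 Mb.

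In the other 11 at least 1 value was called. With any read counted, the difference turned to 5.16 points at the first end of chromosome 2 and 2.69 at the last end of chromosome 19, which was 0.331 without the 2536 bins of fewest expected reads. The remaining ones came with ends of 10 Mb, which take in other bins: 8.06 points at the last end of chromosome 1, 9.28 at that of chromosome 3, 12.1 at that of chromosome 15, 6.27 at that of chromosome 18 and 9.92 at the first end of chromosome 20. First minus last end then was 4.81 points on chromosome 7, -13.1 on chromosome 18 and 13.2 on chromosome 20. For the rest the cause was not tested. Cells 13, 15 and 17 have too few reads for an OE near 1, and on chromosomes 16, 17, 19 and 22:9 single bins could not be called in contact less often.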
